A study of Mus musculus with 4 samples.

Results

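Gzmk-positive CD4 T cells with high Nkg7 were characterized among tumor-infiltrating T cells whose RNA and surface proteins had been counted in the same cells (CITE-seq, in which antibodies carry sequence tags that are read with the transcripts). A cell was taken as a member where its number of detected genes was 200 to 3000 and its mitochondrial share was 5% or less of its UMIs (unique molecular identifiers, each counting 1 captured molecule), with at least 1 Cd4 UMI, no Cd8a, Cd8b1 or Foxp3 UMI, at least 3 Nkg7 UMIs and at least 1 Gzmk UMI. The members were thus chosen by their measured RNA counts, so their levels of Cd4, Nkg7 and Gzmk are given as a description with no test. There were 884 members among 38860 called cells, of which 21900 lay within the gene and mitochondrial limits and 4753 of those were Cd4+ Cd8- Foxp3-.

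The T cells came from subcutaneous tumors grown in wild-type C57BL/6J mice from the Tsc2-deficient mouse kidney tumor line 105K. The tumor cells carried either a non-targeting hairpin (sh-NC) or the first of the study's hairpins against B7-H3, an immune checkpoint ligand encoded by Cd276 (sh-B7-H3 (1)). Per the labels, 80 tumors were pooled in each group before CD3+ cells were sorted, stained and loaded, and each group has 2 libraries. The series' design text describes loading on parallel lanes, while the study's figure legends describe each group as a pair of samples made independently, and the files do not settle which holds. They were treated as 2 lanes of 1 pool, so that p-values below measure the spread between libraries, which may be technical. Both groups share the host strain, the Tsc2 deficiency and a hairpin vector, and only 1 hairpin sequence against Cd276 is represented. The targeted gene could not be used to check the labels, since the tumor cells carried the hairpins and the members are T cells of the host. The members held 0 Cd276 UMIs in each of the 4 libraries.

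CD4 T cells usually help other immune cells through cytokines, but some acquire a killer program that resembles that of CD8 T cells, with granzymes, perforin and the granule protein Nkg7. Granzyme K is a granule protease typical of antigen-experienced T cells at an intermediate or chronically stimulated stage. In tumors such cells often carry checkpoint receptors such as PD-1 and LAG-3 and the surface enzymes CD38 and CD39.

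The 4 libraries held 79224898 to 132820909 RNA UMIs in 7030 to 12112 called cells. Any pair of libraries shared 17 to 35 called barcodes. The median member held 6490.5 to 6841 UMIs and 2072.5 to 2147 genes per library, so depth per cell differed little, while the median mitochondrial share was 2.16% and 2.27% in the sh-NC libraries and 2.95% and 2.99% in the sh-B7-H3 (1) libraries. Free RNA was read from barcodes with 1 to 100 UMIs, which hold no cell, and its levels are given in CPM (UMIs of a gene per 1000000 UMIs) wherever they bear on a result.

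The members formed a far larger share of the CD4 compartment in the sh-B7-H3 (1) tumors. In sh-NC library 1 there were 110 members among 1710 Cd4+ Cd8- Foxp3- cells, or 6.43% (exact binomial 95% interval 5.32 to 7.70%, which covers counting error only). The sh-NC library 2 held 119 of 1394, or 8.54% (7.12 to 10.1%). In the sh-B7-H3 (1) libraries the members were 290 of 717 cells, or 40.4% (36.8 to 44.1%), and 365 of 932 cells, or 39.2% (36.0 to 42.4%). The groups did not overlap, and their means were 7.48 ± 1.49% and 39.8 ± 0.907% (SD, n = 2), a difference of 32.3 percentage points and a ratio of 5.32. The exact two-sided permutation test gave p = 0.333, which is the smallest value that 2 against 2 libraries allow.

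Other denominators gave the same order. The members were 1.46% and 1.91% of all cells within the limits in the sh-NC libraries and 8.29% and 7.90% in the sh-B7-H3 (1) libraries. The numbers of members per tumor were not measured, so more members and fewer other cells cannot be told apart. The CD8 counterparts, which met the same Nkg7 and Gzmk thresholds with Cd8a or Cd8b1 in place of Cd4, also made up more of all cells, at 4.73% and 6.24% against 19.0% and 20.0%. After every cell was thinned to 3000 RNA UMIs, the members were 7.09% and 10.4% of Cd4+ Cd8- Foxp3- cells against 33.2% and 31.6%, a difference of 23.7 points.

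Within the Nkg7-high CD4 cells, the share with a Gzmk UMI was lower in both sh-B7-H3 (1) libraries. It was 78.6% and 77.3% in the sh-NC libraries and 72.7% and 73.1% in the sh-B7-H3 (1) libraries, a difference of -5.01 points (exact two-sided permutation p = 0.333, the smallest value possible here). The share with at least 2 Gzmk UMIs was lower there too, at 89 of 140 and 106 of 154 cells against 205 of 399 and 256 of 499. The Nkg7-high cells themselves were 8.19% and 11.05% of the CD4 cells against 55.6% and 53.5%. The Nkg7 threshold fell in a thin part of the distribution. In library order (sh-NC 1, sh-NC 2, sh-B7-H3 (1) 1, sh-B7-H3 (1) 2, as for all values listed for 4 libraries), 11, 10, 21 and 37 CD4 cells held 2 Nkg7 UMIs, 0, 4, 8 and 7 held 3, and 136, 148, 387 and 489 held 5 or more. The Gzmk threshold lay closer to the cells it kept, since 19.1%, 10.9%, 29.3% and 29.9% of the members held a single Gzmk UMI. Among the CD4 cells with no Nkg7 UMI, Gzmk was seen in 3, 2, 1 and 5 cells.

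**Figure D1:**
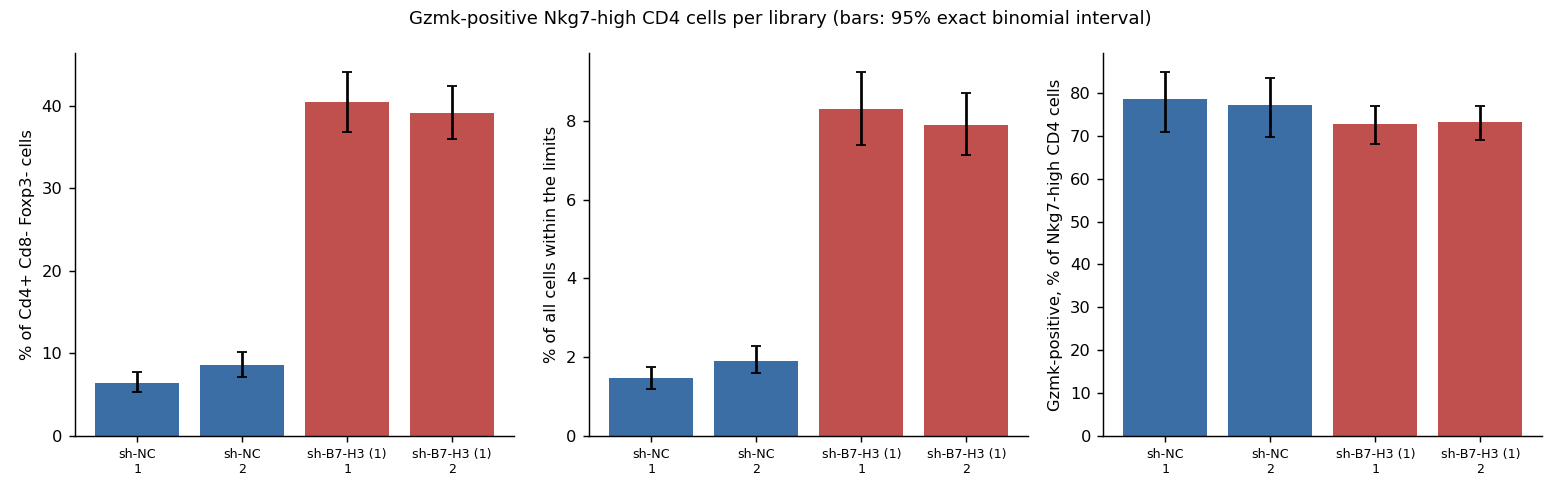
Share of Gzmk-positive Nkg7-high CD4 cells in each library, as a percentage of Cd4+ Cd8- Foxp3- cells (left) and of all cells within the limits (middle), with the share of Nkg7-high CD4 cells that held a Gzmk UMI (right). Bars are single libraries with their exact binomial 95% intervals, which cover counting error only. The sh-B7-H3 (1) libraries stand at 40.4% and 39.2% of CD4 cells against 6.43% and 8.54%, while the right panel spans 72.7% to 78.6%.

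By the rule that chose them, all members held Nkg7, Gzmk and Cd4 RNA. Nkg7 stood at a median of 36, 35, 40 and 37 UMIs per cell, Gzmk at 4, 3, 2 and 2 and Cd4 at 4 in each library. Gzmk lies on chromosome 13 (mm10, 113171608 to 113225908, minus strand) and Nkg7 on chromosome 7 (43437073 to 43438249, plus strand). Cd4 (124864692 to 124888221) and Lag3 (124904361 to 124911705) are close neighbours on the minus strand of chromosome 6. All coordinates are those of the whole gene in GENCODE M21.

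Ccl5, a chemokine that attracts T cells and myeloid cells, was the most abundant transcript of the members outside mitochondrial and ribosomal genes in both sh-NC libraries and the fourth in both sh-B7-H3 (1) libraries. Its summed level was 23207, 24766, 17736 and 17088 CPM. Lag3, an inhibitory receptor that binds MHC class II, stood at 866, 721, 727 and 666 CPM, where CD4 cells without Nkg7 and Gzmk had between 1.98 and 9.22 CPM. Ifng, the gene of interferon gamma, stood at 426, 433, 329 and 346 CPM. These 3 genes, which the rule did not use, were thus present in each library, with Ccl5 the highest by a wide margin.

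Detection per cell was compared after thinning to 3000 UMIs, which left out at most 3 members per library. Lag3 was detected in 78.0%, 73.9%, 77.0% and 78.5% of members, against at most 1.98% of CD4 cells without Nkg7 and Gzmk. Ifng was detected in 56.0%, 55.5%, 46.3% and 40.2% of members against at most 0.976%. Resting CD4 cells with Tcf7 and Ccr7 UMIs, which should lack these genes, held a Lag3 UMI in 0.656%, 1.18%, 1.96% and 3.76% of cells and an Ifng UMI in at most 1.504%, so both shares in the members were above that background. Ccl5 was different, since 13.0%, 16.4%, 67.6% and 66.9% of the resting cells held a Ccl5 UMI and free RNA carried more of it in the sh-B7-H3 (1) libraries, at 1212, 1417, 4279 and 4741 CPM. The Ccl5 level of the members, at 17088 CPM or more in each library, was above the free RNA level.

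In the thinned cells Pdcd1, which encodes PD-1, was seen in 74.3%, 67.2%, 66.6% and 69.1% of members and Tox, a transcription factor of chronically stimulated T cells, in 73.4%, 64.7%, 73.5% and 69.4%. Eomes, a T-box factor of effector and memory T cells, was seen in 45.9%, 42.9%, 38.7% and 38.6%, where CD4 cells without Nkg7 and Gzmk had at most 0.417%. Tbx21, which encodes the related factor T-bet, was seen in only 3.36% to 4.41%. Havcr2 was seen in 25.6% to 33.9% and Tigit in 10.2% to 15.6%. Without thinning, 81.8%, 79.0%, 80.3% and 80.8% of members held Ccl5, Lag3 and Pdcd1 together.

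The cytotoxic program was uneven. Prf1, the gene of the pore-forming protein perforin, was seen in 33.0%, 29.4%, 29.3% and 30.6% of thinned members, beside 4.35% to 6.83% of CD4 cells without Nkg7 and Gzmk. Without thinning it was seen in 47.3%, 46.2%, 46.2% and 50.1% of members and in 17.4%, 20.1%, 14.7% and 14.3% of resting cells. In the thinned members Gzmb was seen in 20.2%, 18.5%, 7.32% and 6.34%, lower in both sh-B7-H3 (1) libraries. Among genes of resting T cells, Tcf7 was seen in 3.58% to 6.72% of members against 53.0% to 62.3% of CD4 cells without Nkg7 and Gzmk. Il7r was seen in 2.48% to 6.42% against 54.2% to 60.2%. Mki67, a gene of cycling cells, was seen in 4.20% to 8.01% of members.

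In the members, markers of B cells, myeloid cells, gamma-delta T cells, tumor and stroma lay below their free RNA levels. Those of regulatory T cells and of NK and NKT cells lay above them. The 4 regulatory T cell markers, of which the rule set Foxp3 to 0, summed to 349, 283, 341 and 350 CPM. Free RNA held 153, 156, 233 and 200 CPM of them. CD4 cells without Nkg7 and Gzmk held 40.8 to 72.2 CPM, and the CD8 counterparts 133 to 174 CPM. All 6 T cell markers were present, with a summed level of 10629 to 11844 CPM. Of the 6 NK and NKT markers, Ncr1, Klra4 and Klra8 were at 0 in every library and Klrb1c and Zbtb16 at 0 in 3 of 4. The 6 summed to 42.3 to 82.4 CPM, all of it from Klre1 in those 3 libraries. Free RNA held 7.51, 6.04, 26.9 and 24.9 CPM of them. CD4 cells without Nkg7 and Gzmk held 0.103 to 1.63 CPM, and the CD8 counterparts 45.2 to 73.2 CPM. Of the 5 B cell markers, Cd79a and Ms4a1 were at 0 in every library, with a sum of 24.6 to 35.9 CPM beside 185 to 287 CPM in free RNA. The 7 tumor and stroma markers summed to 22.6 to 34.8 CPM and the 2 gamma-delta T cell markers to 0, 1.17, 10.3 and 7.40 CPM, all of it Trdc at 0, 1, 21 and 19 UMIs. Trdc was called higher in the sh-B7-H3 (1) libraries by edgeR, but passed the low-count filter only through them, so no support is taken from that call. It was not called by DESeq2, without sh-NC library 1 or with up to 5000 genes. The 13 myeloid markers moved with the group too, at 91.7, 140, 424 and 397 CPM in members beside 474, 558, 1656 and 1455 CPM in free RNA. Of the members, 2.73%, 5.04%, 10.7% and 4.93% fell in the top 10% of doublet scores of their library.

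The surface tags placed the members on the CD4 side of the sort. The CD4 tag had a median of 20, 19, 24 and 16 counts per member and exceeded the highest isotype control tag of the same cell in 94.5%, 92.4%, 93.8% and 90.7% of members. In the CD8 counterparts it did so in 5.66% to 7.81% of cells. The CD8b tag had a median of 2, 2, 3 and 2 counts in members against 69, 66, 54.5 and 40 in the CD8 counterparts, and exceeded the isotype controls in 23.0% to 24.5% of members, beside 19.4% to 26.3% of CD4 cells without Nkg7 and Gzmk. For most cells the protein thus followed the lineage that the RNA rule had assigned.

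CD38 and CD39, an NAD-consuming enzyme and an ATP-degrading enzyme on the cell surface, gave the highest tag counts of the members after CD90.2, a pan-T cell antigen. The median member held 6637, 6114, 5595.5 and 4063 tag counts in all, and the raw medians below are not scaled for it. The CD38 tag had a median of 910.5, 786, 676.5 and 490 counts per member, against 8, 7, 20 and 16 in CD4 cells without Nkg7 and Gzmk. The CD39 tag had a median of 625, 532, 446 and 315 counts against 17, 15, 29 and 20. In 91.8%, 92.4%, 82.4% and 96.4% of members both tags exceeded the 99th percentile of the CD4 cells without Nkg7 and Gzmk of their library. Among the CD8 counterparts 71.4%, 65.8%, 45.5% and 85.0% of cells also did so. The limits differed between libraries, at 307, 358, 410 and 161 counts for CD38 and 249, 200, 264 and 105 counts for CD39. These shares are therefore not compared between libraries.

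The PD-1 tag had a median of 68.5, 62, 50 and 36 counts and exceeded the isotype controls in every member. The inhibitory receptor CD200R had a median of 75, 67, 69 and 46 counts, and the adhesion molecule CD54 had 193, 194, 163 and 116. The tags of CD44 and TIGIT had medians of 0 to 1 count, at or under the isotype controls, so no level is read from them. ICOS had 4, 4, 4 and 3 counts, near the isotype level of 4 to 5, and exceeded it in 44.5%, 44.5%, 30.7% and 26.3% of members. The panel of 197 tags held no LAG-3 antibody under that name, so Lag3 is known here from RNA alone.

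**Figure D2:**
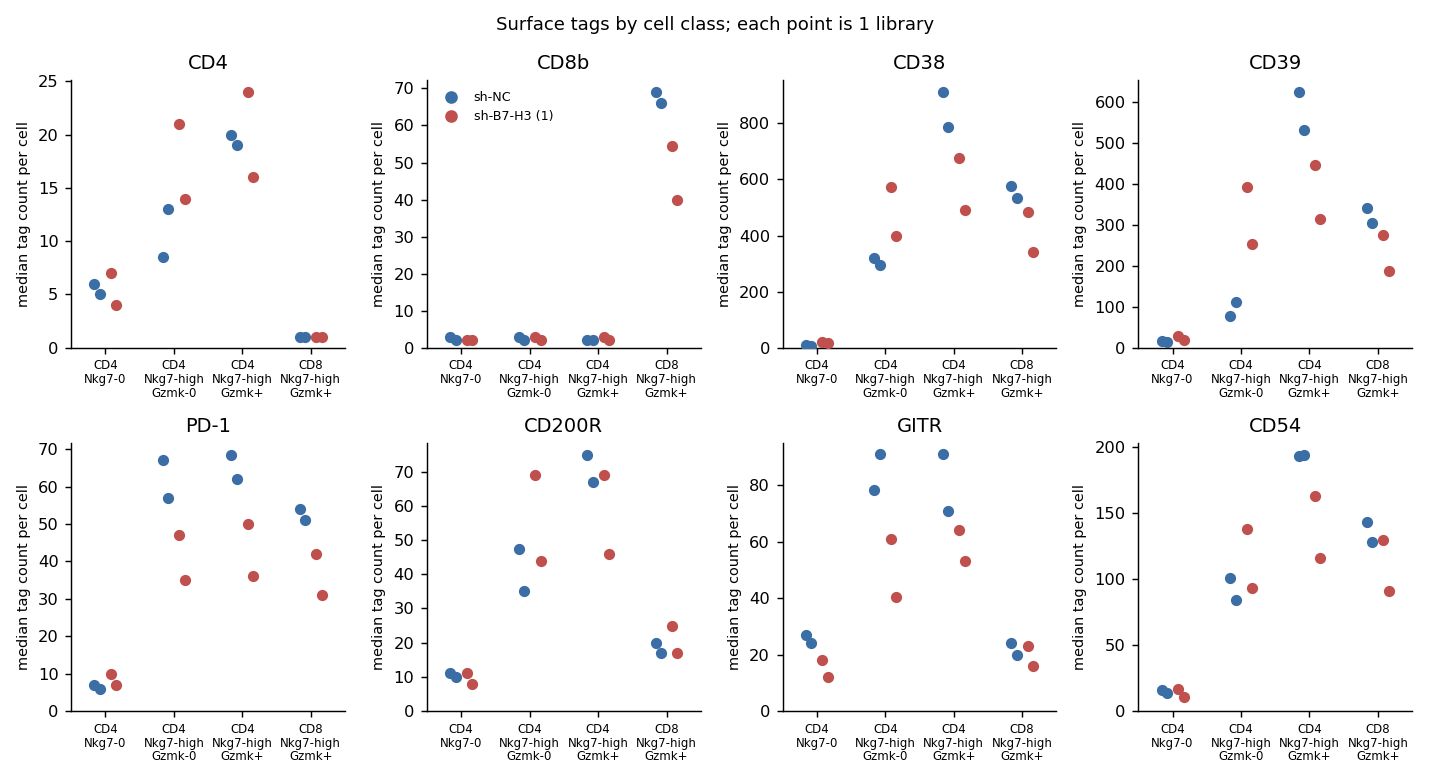
Median tag count per cell for 8 surface proteins in 4 cell classes, with 1 point per library and the groups marked by color. The members (CD4, Nkg7-high, Gzmk+) stand apart from CD4 cells without Nkg7 and Gzmk for CD38 (medians 490 to 910.5 against 7 to 20) and CD39 (315 to 625 against 15 to 29), and their median CD8b count is 2 to 3 where the CD8 counterparts have 40 to 69.

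The members were then compared with the CD8 T cells that met the same Nkg7 and Gzmk thresholds. Only the thresholds were shared, since the median Nkg7 count was 36, 35, 40 and 37 in members and 26, 26, 30 and 28 in the CD8 counterparts. Library sums of both classes were tested with the library as a block, in edgeR's quasi-likelihood test. Genes were called where the p-value adjusted by Benjamini-Hochberg lay under 0.05 and the log2 fold change was 1 or more in size. Of 9531 genes tested, 274 (2.87%) were higher and 197 (2.07%) lower in the members, beside a median log2 difference of 0.0053 over all genes. The levels below are CPM with library scaling by TMM.

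Among the higher genes, Spp1, which encodes the secreted glycoprotein osteopontin, stood at 176, 51.4, 289 and 213 CPM in members and at 3.91, 5.55, 14.2 and 12.2 CPM in the CD8 counterparts, a log2 difference of 4.28 (SE 0.13, adjusted p = 2.485e-16). Ccl3 stood at 3951, 3177, 2779 and 2408 CPM against 320, 398, 648 and 576 CPM (log2 2.65, SE 0.15, adjusted p = 2.072e-11). The member libraries were higher than their CD8 counterparts for both genes, without overlap. Ccl4 was also higher (log2 1.93, SE 0.15, adjusted p = 1.886e-09). Ccl5 was not called, at 21658, 23569, 17305 and 16865 CPM against 18484, 18939, 22814 and 22683 CPM (log2 -0.07, adjusted p = 0.634).

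Checkpoint and costimulatory genes differed in both directions. Lag3 stood at 808, 686, 710 and 657 CPM in members against 248, 242, 291 and 271 CPM (log2 1.42, SE 0.06, adjusted p = 2.598e-13), and after thinning it was seen in 39.9% to 49.5% of the CD8 counterparts. The costimulatory receptors Tnfrsf4, or OX40 (log2 2.98, SE 0.18, adjusted p = 7.462e-11), and Tnfrsf9, or 4-1BB (log2 1.41, SE 0.09, adjusted p = 2.311e-10), were higher. Cd226, an activating receptor, was lower at 4.96, 11.2, 10.5 and 13.1 CPM against 110, 95.9, 99.9 and 88.4 CPM (log2 -3.14, SE 0.15, adjusted p = 8.179e-13). The inhibitory receptor Cd160 was lower as well (log2 -1.83, SE 0.16). Of 13 inhibitory receptor genes, 3 were higher and 2 lower, with a median of 0.49. Of 12 costimulation genes, 3 were higher and 3 lower, with Cd40lg among the higher ones not called in any fit without 1 library (adjusted p = 0.0959 to 0.291).

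Among transcription factors, 6 of 17 tested were higher and 1 lower, with a median of 0.64. Maf, a factor tied to Il10 and Il21 expression in CD4 cells, stood at 412, 347, 223 and 183 CPM against 51.6, 58.3, 46.6 and 47.9 CPM (log2 2.38, SE 0.11, adjusted p = 3.71e-13). Zbtb7b, which encodes the CD4 lineage factor ThPOK, was higher (log2 2.32, SE 0.25, adjusted p = 2.78e-07), as were Nr4a2 (log2 1.64, SE 0.11) and Ikzf2 (log2 1.07, SE 0.07). When sh-NC library 1 was left out, Ikzf2 lay at 0.996, just under the fold limit, and was not called. Eomes differed by 0.34 and Tox by 0.64 on the log2 scale, under the fold limit. Runx3, a factor of the cytotoxic lineage, was not called (log2 0.08, adjusted p = 0.419), with 387, 389, 481 and 508 CPM in members and 411, 420, 401 and 449 CPM in the CD8 counterparts.

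The effector cytokine Ifng was higher at an adjusted p of 2.506e-08 but under the fold limit (log2 0.96, SE 0.09). Il21, a cytokine of helper cells, was higher (log2 3.74, SE 0.49, adjusted p = 5.171e-06) from levels of 4.78 to 23.6 CPM in members against at most 1.19 CPM. Il10 passed the test (log2 2.51, SE 0.49, adjusted p = 0.000533), but its direction held in 3 of 4 libraries, with 6.70 CPM in members and 7.58 CPM in the CD8 counterparts of sh-B7-H3 (1) library 1, and DESeq2 did not call it. Of 12 cytokine and chemokine genes, 5 were higher and 1 lower (median 0.73).

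The killer genes were not all shared between the classes. Gzmb stood at 212, 114, 26.3 and 36.9 CPM in members against 547, 475, 274 and 328 CPM (log2 -2.40, SE 0.18, adjusted p = 9.855e-10), and Ctsw, a cathepsin of cytotoxic cells, was lower by 1.90 (log2 -1.90, SE 0.07, adjusted p = 3.881e-15). Prf1 differed by 0.35 on the log2 scale, under the fold limit, with 193, 174, 136 and 152 CPM against 135, 121, 130 and 116 CPM. Of 15 cytotoxic genes, 2 were lower and 0 higher, with a median of -0.26.

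Of 14 interferon genes, 8 were lower and 0 higher (median -1.10), among them Isg15 at 85.5, 61.4, 63.6 and 44.2 CPM against 375, 300, 185 and 202 CPM (log2 -2.002, SE 0.10, adjusted p = 8.703e-13). Of 15 resting genes, 7 were lower and 0 higher (median -0.94). Of 17 trafficking genes, 3 were higher and 5 lower (median -0.42). The lower ones included the integrin genes Itgae (log2 -2.80, SE 0.19) and Itga1 (log2 -3.13, SE 0.18), which help T cells settle in epithelium and matrix, and the chemokine receptor gene Cxcr3 (log2 -2.13, SE 0.13). The T cell receptor signaling list had 3 of 18 genes higher and the follicular helper list 3 of 4, Cxcr5 among them, a call that did not hold without either sh-NC library (log2 0.99 and 0.70). None of the 12 proliferation genes or the 10 glycolysis genes was called.

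Of 197 tags, 5 (2.54%) were higher and 2 (1.02%) lower in the members than in the CD8 counterparts. The CD4 tag was higher (log2 3.93, SE 0.04, adjusted p = 1.257e-06) and CD8b (log2 -4.27, SE 0.18) and CD8a (log2 -1.07, SE 0.03) were lower, which follows from the RNA rule. The costimulatory receptor GITR was higher, at 19369, 17646, 12665 and 14358 tag CPM against 5707, 5598, 4740 and 4470 (log2 1.63, SE 0.07, adjusted p = 0.000215). CD200R was higher by 1.14 (SE 0.09), the complement regulator CD55 by 1.095 (SE 0.05) and CD5 by 1.05 (SE 0.11), of which CD5 was not called without sh-NC library 1 or without sh-B7-H3 (1) library 2. CD39 (log2 0.76, SE 0.04, adjusted p = 0.000407) and CD38 (log2 0.56, SE 0.04, adjusted p = 0.00177) were higher by less than the fold limit, in 4 of 4 libraries. PD-1 differed by 0.22 and was higher in 4 of 4 libraries (adjusted p = 0.0081).

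**Figure D3:**
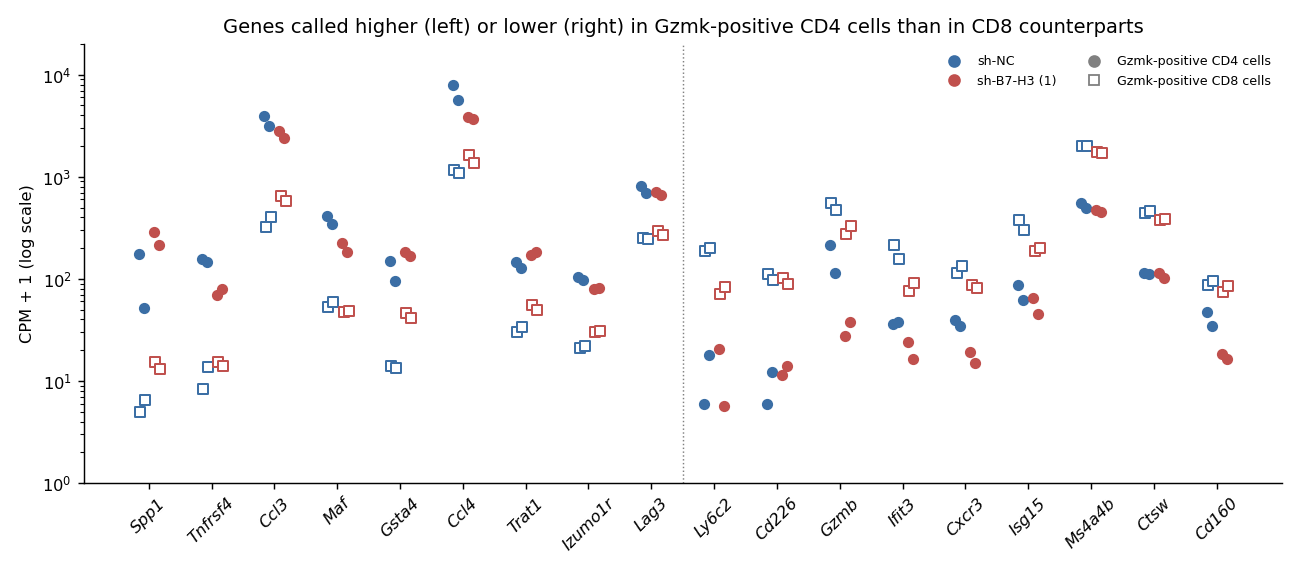
Levels of called genes in the Gzmk-positive CD4 cells (filled circles) and in the CD8 counterparts (open squares), 1 point per library, as CPM + 1 on a log axis, with the groups marked by color. Spp1, Ccl3, Maf and Lag3 lie higher in the CD4 cells in all 4 libraries, and Gzmb, Cd226 and Isg15 lie lower.

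The members were next set against the Nkg7-high CD4 cells with no Gzmk UMI, of which there were 30, 35, 109 and 134. These cells were not alike across the groups, since their median Nkg7 count was 10.5 and 11 in the sh-NC libraries and 35 and 30.5 in the sh-B7-H3 (1) libraries, beside 35 to 40 in the members. Of 7402 genes, 2 (0.027%) were higher and 44 (0.594%) lower in the members, beside a median of -0.00265. The counts rest on few cells, and were 20 without sh-NC library 2 and 89 without sh-B7-H3 (1) library 1.

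Ccl5 was the only higher gene outside the selection rule, at 22924, 25156, 18530 and 18014 CPM in members against 4598, 4467, 11030 and 11085 CPM (log2 1.55, SE 0.23, adjusted p = 0.00208), and DESeq2 did not call it. Xcl1, a chemokine that attracts cross-presenting dendritic cells, was lower at 9.19, 13.1, 31.2 and 42.3 CPM against 1573, 1048, 38.5 and 295 CPM (log2 -3.83, SE 0.57, adjusted p = 0.00202). Ccl1 had 0, 0, 15 and 10 UMIs in the members against 464, 305, 22 and 494 UMIs. Xcl1 was thus highest in the Gzmk-0 cells of the sh-NC libraries. Ccl1 was held by Gzmk-0 cells of both groups, with the largest count, 494 UMIs, in sh-B7-H3 (1) library 2, whose class has more cells.

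Other genes lower in the members were Il7r, the interleukin 7 receptor (log2 -2.08, SE 0.24, adjusted p = 0.000218), Klf2, a factor of quiescence and tissue exit (log2 -2.22, SE 0.32), and Cd226 (log2 -2.82, SE 0.33). Of 14 resting genes, 4 were lower and 0 higher, with a median of -0.93. Of these, Tcf7 (log2 -0.96, adjusted p = 0.220) and S1pr1 (log2 -1.50, adjusted p = 0.139) were not called without sh-NC library 2, nor with lineage also from tags. Of 12 costimulation genes, 4 were lower and 0 higher (median -0.78), including Cd40lg, the helper signal to B cells and dendritic cells (log2 -2.73, SE 0.44, and -2.09 and not called without sh-NC library 2), and Tnfrsf4 (log2 -1.17, SE 0.12). Of 13 cytokine and chemokine genes, 1 was higher and 3 lower.

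No tag passed the thresholds between the members and the Gzmk-0 cells (0% of 197 higher and 0% lower) in edgeR, where 28 had an unadjusted p under 0.05, and DESeq2 called 1. CD39 stood at 110220, 108380, 70083 and 68674 tag CPM in members and at 37123, 40921, 59330 and 54258 in the Gzmk-0 cells (log2 0.89, SE 0.29, adjusted p = 0.264). CD38 stood at 167170, 165110, 103920 and 102340 against 69775, 70578, 86392 and 78522 (log2 0.78, SE 0.23, adjusted p = 0.26). The distance between the classes was wider in the sh-NC libraries for both.

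An interaction of the knockdown with Gzmk status was fitted after that gap was seen, so its CD39 and CD38 values restate it. The classes are split by Gzmk detection, and Gzmk stood at 636, 592, 390 and 387 CPM (unscaled) in the members, while the Gzmk-0 cells of the sh-B7-H3 (1) libraries had the higher Nkg7 counts given above. The part of this split in the interaction was not tested. Among 7402 genes, 16 (0.216%) had a higher and 16 (0.216%) a lower knockdown effect in the members than in the Gzmk-0 cells. Lag3 stood at 223, 380, 638 and 652 CPM in the Gzmk-0 cells and at 856, 732, 760 and 702 CPM in the members (interaction log2 -1.18, SE 0.19, adjusted p = 0.000923). Eomes (-1.32, SE 0.32) and Prf1 (-1.71, SE 0.41) went the same way. The Lag3, Eomes and Prf1 calls were each lost without sh-NC library 1 (-0.81, -0.92 and -0.94), and that of Eomes also without either sh-B7-H3 (1) library (-1.40 and -1.29). There were 30.4 and 68.3 CPM of Eomes in the Gzmk-0 cells of the sh-NC libraries and 129 and 127 CPM in those of the sh-B7-H3 (1) libraries. Among 197 tags, 0% had a higher effect and 1 (0.508%) a lower one, CD39 (-1.20, SE 0.10, adjusted p = 0.0358), and that call was lost without either sh-B7-H3 (1) library, at -1.12 and -1.22 (adjusted p = 0.736 and 0.395). Over both CD38 and CD39 limits, which differed between libraries as given above, were 26.7%, 34.3%, 65.1% and 78.4% of the Gzmk-0 cells.

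**Figure D4:**
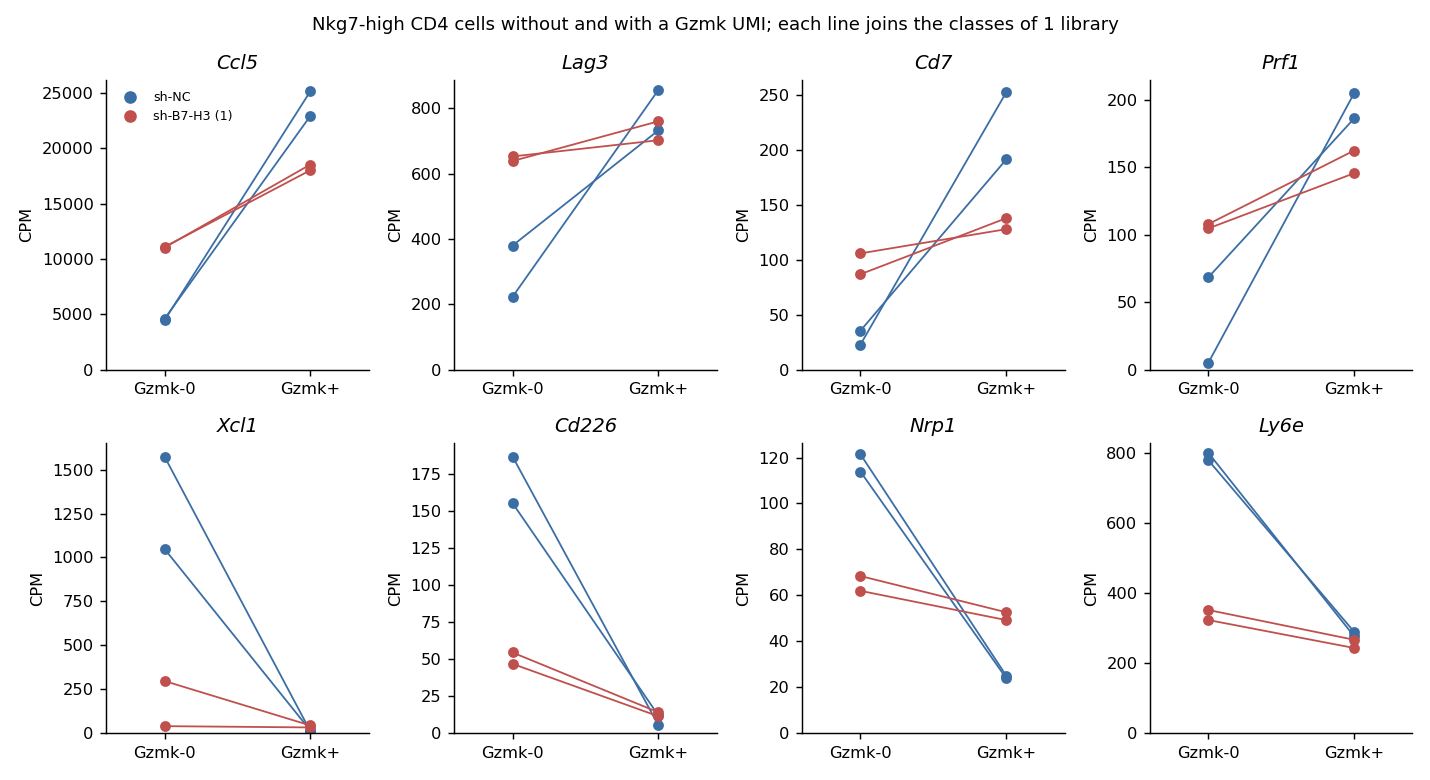
Levels of 8 genes in CPM in Nkg7-high CD4 cells without and with a Gzmk UMI, each line joining the classes of 1 library and the groups marked by color. In the Gzmk-0 cells Ccl5 (4598 and 4467 against 11030 and 11085 CPM) and Lag3 (223 and 380 against 638 and 652 CPM) were higher in the sh-B7-H3 (1) libraries.

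To ask whether the members differed between sh-NC and sh-B7-H3 (1) tumors, their library sums were compared between the groups. Of 8219 genes tested in edgeR, 32 (0.389%) were higher and 25 (0.304%) lower in the sh-B7-H3 (1) libraries, and 183 had an adjusted p under 0.05 without the fold limit. The median log2 fold change over all genes was 0.0066. The count was 24 without sh-B7-H3 (1) library 1 and 19 without library 2, and DESeq2 called 16.

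Il10, the gene of an anti-inflammatory cytokine, fell furthest among the named genes. Its levels were 54.4, 58.8, 7.06 and 2.02 CPM from 42, 50, 14 and 5 UMIs (log2 -3.70, SE 0.33), and edgeR called it. Il10 passed the low-count filter only through the sh-NC libraries, however, so no support is taken from that call. The transcripts came from 10 of 110 cells (9.09%, exact 95% interval 4.45 to 16.1%), 12 of 119 (10.1%, 5.32 to 17.0%), 9 of 290 (3.10%, 1.43 to 5.81%) and 5 of 365 (1.37%, 0.446 to 3.17%). Both sh-NC libraries were higher, and few cells carried the difference. Of those Il10-positive cells, 8, 9, 9 and 4 also held an Ifng UMI. Maf, at 430, 366, 235 and 192 CPM, was lower at an adjusted p of 7.599e-08 but under the fold limit (log2 -0.90, SE 0.10).

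The granzymes A and B fell as well. Gzmb stood at 221, 120, 27.7 and 38.8 CPM (log2 -2.32, SE 0.19, adjusted p = 9.124e-11). Gzma stood at 113, 50.6, 22.2 and 11.7 CPM (log2 -2.28, SE 0.27, adjusted p = 4.063e-07), and DESeq2 did not call it. The groups did not overlap for either gene, although in CPM the sh-NC libraries lay farther from each other than library 2 lay from either sh-B7-H3 (1) library. Prf1, at 202, 184, 143 and 160 CPM, was not called (log2 -0.34, adjusted p = 0.11). Of 15 cytotoxic genes tested, 2 were lower and 0 higher, with a median of -0.13.

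Among the other lower genes, Ly6a, which encodes the activation antigen Sca-1, stood at 213, 204, 80.1 and 64.7 CPM (log2 -1.54, SE 0.13, adjusted p = 7.208e-11). Rsad2, an antiviral gene, fell (log2 -2.05, SE 0.39, adjusted p = 0.00127), so that 2 of 14 interferon genes were lower and 0 higher (median -0.47). Cxcr5, the receptor that leads T cells to B cell follicles (log2 -1.75, SE 0.41, adjusted p = 0.0133), and Il21 (log2 -1.70, SE 0.41, adjusted p = 0.018) fell from 15.5 and 22.4 and from 24.6 and 14.1 CPM in the sh-NC libraries. These 2 were the called genes among 4 of the follicular helper list (median -0.89). Tnfrsf4, at 163, 154, 72.6 and 82.1 CPM (log2 -1.03, SE 0.13), Cd160 (-1.27, SE 0.25) and Cxcr3 (-1.17, SE 0.26) were lower too.

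Several of these calls were lost when 1 library was left out, which leaves a group with a single library whose spread is assumed. Rsad2, Cd160 and Cxcr3 were not called without sh-NC library 1 or without sh-B7-H3 (1) library 2, and without the latter their log2 fold changes were -1.62, -1.18 and -0.96 (adjusted p = 0.223, 0.138 and 0.270). Tnfrsf4 was not called without sh-NC library 1 or sh-B7-H3 (1) library 1, at -0.99 and -0.94. Il21 was not called without either sh-B7-H3 (1) library (-1.54 and -1.90) or without sh-NC library 1 (-1.27). Cxcr5 was not called without either sh-B7-H3 (1) library (-1.54 and -2.04) or without sh-NC library 2 (-1.46). The differences of both genes thus kept their direction, at adjusted p-values of 0.213 to 0.403 in these fits. Tsc22d3, a glucocorticoid-induced gene (-1.14, SE 0.24), and Dusp1, an immediate early phosphatase gene (-1.06, SE 0.24), were lost without either sh-B7-H3 (1) library, and also without sh-NC library 1 and sh-NC library 2, respectively. Tsc22d3 lay between -0.99 and -1.20 in these fits, while without sh-NC library 2 the Dusp1 difference was -0.32 (adjusted p = 0.760). Gzmb and Ly6a were called when any single library was left out, and so was Il10, from whose test no support is taken. Besides Gzma, DESeq2 did not call Rsad2, Cxcr5, Il21, Cd160, Cxcr3, Tsc22d3 or Dusp1, nor Xcl1 and Spp1 below.

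Among the higher genes, Xcl1 stood at 9.06, 12.9, 30.7 and 41.7 CPM (log2 1.72, SE 0.32, adjusted p = 0.000925, and 1.47 and not called without sh-B7-H3 (1) library 2). Spp1 was uneven within sh-NC, at 184, 54.1, 305 and 224 CPM (log2 1.17, SE 0.20, adjusted p = 0.000277), and was not called without sh-NC library 2 (log2 0.51) or sh-B7-H3 (1) library 1 (log2 0.95). Nrgn, a calmodulin-binding protein gene, stood at 31.1, 30.6, 74.6 and 77.2 CPM (log2 1.30, SE 0.20, adjusted p = 3.228e-05). Il2rb, a receptor chain for interleukins 2 and 15, stood at 712, 659, 1039 and 1045 CPM, under the fold limit (log2 0.61, SE 0.07, adjusted p = 5.321e-07).

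**Figure D5:**
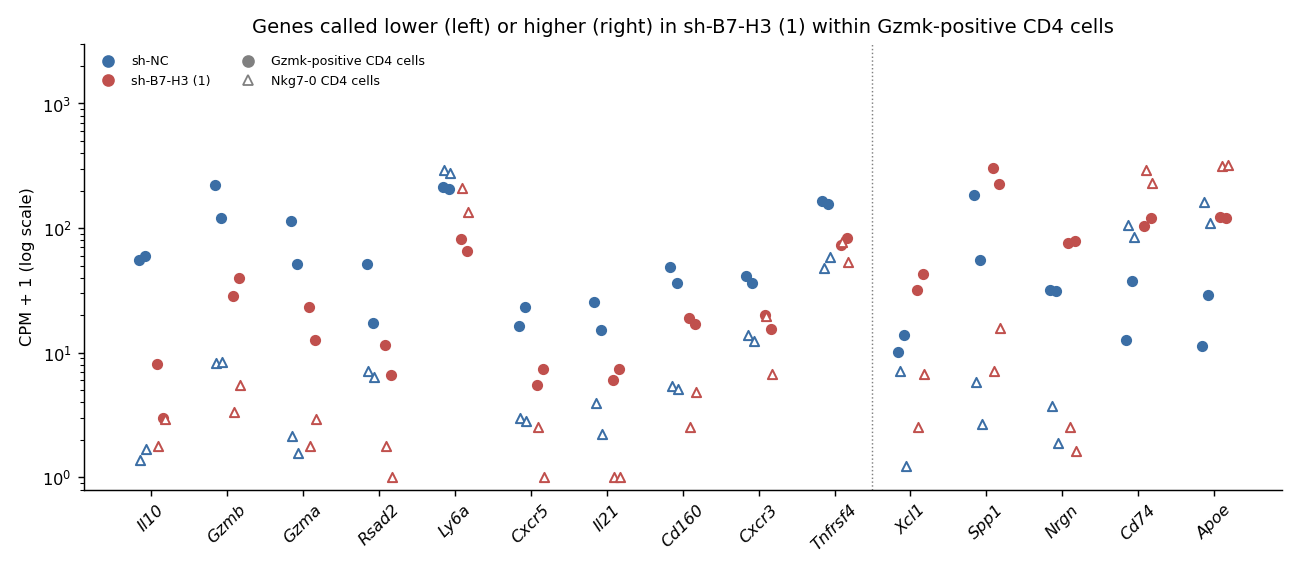
Levels of called genes in the Gzmk-positive CD4 cells (filled circles) and in CD4 cells without Nkg7 and Gzmk (open triangles), 1 point per library, as CPM + 1 on a log axis, with the groups marked by color. Il10, Gzmb, Gzma and Ly6a lie lower in both sh-B7-H3 (1) libraries of the members, and Cd74 and Apoe are higher in both cell classes.

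Other higher genes moved with free RNA and with a ribosomal RNA signal. Their levels are given here as unscaled CPM, as for free RNA. Apoe, a lipid carrier abundant in macrophages, stood at 10.6, 28.2, 118 and 115 CPM in members (log2 2.60, SE 0.22, adjusted p = 1.218e-10) and at 177, 211, 659 and 563 CPM in free RNA. Cd74, the invariant chain of MHC class II, stood at 11.96, 36.4, 99.98 and 115 CPM (log2 2.17, SE 0.23) beside 83.1, 94.1, 320 and 275 CPM in free RNA. Apoe was not called with up to 5000 genes per cell (log2 0.84, adjusted p = 0.495). Cd74 was not called by DESeq2 (adjusted p = 0.231) or without the top 10% of doublet scores (log2 1.44, adjusted p = 0.105). H2-Aa, a class II gene of antigen-presenting cells, stood at 2.66, 7.04, 29.9 and 38.6 CPM beside 23.0, 29.5, 96.0 and 79.1 CPM in free RNA. H2-Eb1, another, stood at 6.64, 7.04, 43.1 and 39.0 CPM beside 27.2, 34.3, 110 and 99.2 CPM. They were higher by 2.84 and 2.62 on the log2 scale, and by 2.33 to 3.75 and 2.57 to 2.70 when 1 library was left out. Neither would have passed the low-count filter on the sh-NC libraries alone, so no support is taken from their tests. The part of free RNA in these results was not tested. Gm42418, whose locus overlaps ribosomal RNA sequence, stood at 5937, 4843, 29008 and 27298 CPM in members (log2 2.45, SE 0.07) and at 5104, 4947, 31294 and 30638 CPM in CD4 cells without Nkg7 and Gzmk, and Lars2 (log2 2.10, SE 0.11) and AY036118 (log2 1.95, SE 0.08) were higher beside it.

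Several genes abundant in the members were not called between the groups. Lag3, at 844, 722, 748 and 691 CPM (log2 -0.12, SE 0.08, adjusted p = 0.542), and Eomes, at 192, 178, 191 and 173 CPM (log2 -0.03, SE 0.11, adjusted p = 0.959), overlapped between the groups. Pdcd1 (log2 -0.28, SE 0.08, adjusted p = 0.0508), Ifng (log2 -0.28, SE 0.08, adjusted p = 0.0688) and Tox (log2 0.20, SE 0.08, adjusted p = 0.246) also missed the threshold. Ccl5 (log2 -0.40, SE 0.07, adjusted p = 0.000141), Ccl3 (-0.45, SE 0.08) and Ccl4 (-0.85, SE 0.09, adjusted p = 1.034e-08) were lower under the fold limit. Of 16 transcription factors and 11 proliferation genes tested, none was called at both limits, with medians of 0.04 and -0.24. The inhibitory receptor list had 1 of 11 genes lower, the cytokine and chemokine list 2 of 12 higher and 2 lower, and the T cell receptor signaling list 0 of 18.

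Of 197 tags, 2 (1.02%) were higher and 3 (1.52%) lower in members of the sh-B7-H3 (1) libraries. Ly-6C, a myeloid and memory T cell antigen, stood at 9179, 9644, 3402 and 3493 tag CPM (log2 -1.45, SE 0.06, adjusted p = 0.0016), CD45 fell by 1.20 (SE 0.07, adjusted p = 0.00227) and the adhesion receptor CD2 by 1.07 (SE 0.08, adjusted p = 0.00296). The CD2 call was lost without sh-B7-H3 (1) library 1 (log2 -0.998), with 10% mitochondrial UMIs and with up to 5000 genes. In the CD4 cells without Nkg7 and Gzmk, raw median counts were 62, 54, 21 and 20 for Ly-6C, 63, 58, 28 and 19 for CD45 and 96, 88, 62 and 41 for CD2, lower in both sh-B7-H3 (1) libraries, beside median totals of 4190, 3767, 3593 and 2485 tag counts. The B cell receptor CD22 (log2 1.44, SE 0.18) and CCR8 (log2 1.27, SE 0.09) were higher, at medians of 1 to 3 counts per member, under the isotype level of 4 to 5, which they exceeded in 0.909% to 3.36% of members in the sh-NC libraries and 15.2% to 16.6% in the sh-B7-H3 (1) libraries.

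High-count tags were mostly lower in the sh-B7-H3 (1) libraries, CD38 and CD39 among them. Of 14 tags with a mean of at least 10000 tag CPM, 12 were lower and 0 higher at an adjusted p under 0.05, with a median of -0.64 over the 12. The other 2 reached that mean through 1 library each, CD163 at 71262 tag CPM in sh-NC library 1 against 216 to 266 elsewhere and TIGIT at 42169 tag CPM in sh-B7-H3 (1) library 1 against 147 to 160. CD90.2 was lower by 0.76, the receptor HVEM by 0.77 and the T cell receptor beta chain by 0.64, as much as CD38 and CD39. CD38 stood at 156140, 155460, 97482 and 98358 tag CPM (log2 -0.67, SE 0.02, adjusted p = 0.00147) and CD39 at 102940, 102050, 65743 and 65999 (log2 -0.64, SE 0.02, adjusted p = 0.0016), both under the fold limit. PD-1 was lower by 0.60 (SE 0.06, adjusted p = 0.00514), CD54 by 0.53 (SE 0.07, adjusted p = 0.0114) and CD200R by 0.48 (SE 0.06, adjusted p = 0.0082). Scaling on isotype tags moved the median of all tags to -0.15, and tag differences are relative to the scaling by that amount. Entpd1, the RNA of CD39 (log2 0.00, SE 0.12, adjusted p = 0.999), and Cd38 RNA (log2 0.22, SE 0.13, adjusted p = 0.489) were not called.

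Whether the knockdown effect in members differed from that in CD4 cells without Nkg7 and Gzmk was tested by an interaction term. Of 9352 genes, 5 (0.0535%) had a higher and 12 (0.128%) a lower effect in the members. Ccl5 was at 29.1, 34.2, 192 and 280 CPM in the CD4 cells without Nkg7 and Gzmk, where the members had 19917, 21854, 16040 and 15589 CPM (interaction log2 -3.31, SE 0.14, adjusted p = 4.872e-18). Ccl3 (-3.53, SE 0.31) and Ccl4 (-2.33, SE 0.29) went the same way, at 2.48, 2.38, 22.5 and 18.7 CPM of Ccl3 in those cells. The chemokine levels of those cells moved with the free RNA levels of Ccl5 given above, whose part was not tested. The Ccl4 call was lost without either sh-B7-H3 (1) library (-2.13 and -2.50) and the Ccl3 call without library 2 (-3.55). Il10 had 0.38 to 1.93 CPM in those cells and its interaction was not called (log2 -5.11, SE 1.31, adjusted p = 0.12). Its interaction with Gzmk status was called in edgeR (log2 -10.1, adjusted p = 0.00738). That call was lost in DESeq2, without sh-NC library 1 (-10.4) and without sh-B7-H3 (1) library 2 (-7.74). The Gzmk-0 cells of the sh-NC libraries numbered only 30 and 35, so no size is read from these values.

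Of 7 alpha and beta V segments of the T cell receptor that passed the low-count filter in edgeR, 2 were higher and 1 lower in the sh-B7-H3 (1) libraries. Over all genes tested, 0.389% were higher and 0.304% lower. The segments were looked at after the values were seen. The 2 higher ones, Trav16 and Trav13n-1, passed that filter only through the sh-B7-H3 (1) libraries, so no support is taken from their tests. Trav16 was found in 0 of 110 and 0 of 119 members in the sh-NC libraries, and in 21 of 290 (7.24%) and 27 of 365 (7.40%) in the sh-B7-H3 (1) libraries. In the CD8 counterparts it was found in 7 of 357, 3 of 389, 23 of 666 and 36 of 926 cells, also a higher share in both sh-B7-H3 (1) libraries. Any Trav segment was detected in only 38, 35, 97 and 113 members. Of these, Trav16 was found in 0, 0, 21.6% and 23.9%, where the counts of 0 allow up to 7.89% and 8.57% of such cells to hold a Trav16 UMI (3 cells of the total, for counting error only). Trav13n-1 was found in 0, 0, 12 and 15 members. Of the 7 and 10 Trav13n-1 cells with a detected Trbv segment, 5 and 10 held Trbv2. The pairing was not particular to Trav13n-1. In the same 2 libraries Trbv2 was held by 2 of 5 and 7 of 8 such Trav16 cells. It was also held by 5 of 8 and 9 of 10 such cells with the alpha segment Trav3-3. Trav13-4-dv7 had only 2 and 0 cells with a Trbv segment. Trbv20 went the other way, in 6, 10, 1 and 4 members (log2 -3.29, SE 0.68). Its call in edgeR rests on these few cells, so no support is taken from it. Trbv19 was found in 6, 9, 5 and 9 members (log2 -1.70, adjusted p = 0.0905). Trbv2 was the leading beta segment of the members in every library, at 20.0%, 25.5%, 35.8% and 40.5% of cells with one detected, although its summed level was not called (log2 0.72, SE 0.29, adjusted p = 0.245). In CD4 cells without Nkg7 and Gzmk it also led, at 17.1% and 18.9% in the sh-NC libraries and 17.2% in sh-B7-H3 (1) library 2. In sh-B7-H3 (1) library 1 it tied there with Trbv15, at 8 cells each. These segments have near-identical copies, such as Trav16n, between which reads could be split, so the assignments are uncertain, and how many mice these cells came from is not known.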

How the data were processed

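CITE-seq libraries of sorted CD3+ tumor T cells were analysed (4 libraries, 2 per group). Per the labels, the authors' pipeline was Cell Ranger on mm10 with Seurat 4.0.0 downstream. The deposited filtered matrices hold raw counts, as UMI counts per gene and per antibody tag for 32285 genes and 197 tags, and were used unnormalized. The deposited unfiltered matrices gave the free RNA counts. No deposited column was left unused for want of a sample. Values of a few list genes and of 1 tag are not reported here.

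Members and gene lists were chosen with earlier results of these data known. Cells were summed per library and class and tested with edgeR 4.0.16 (R 4.3.3, quasi-likelihood, TMM, low-count filter, Benjamini-Hochberg over all features), with calls where the adjusted p lay below 0.05 and the log2 fold change was 1 or more in size. The standard error is the log2 fold change over the root of F. Class comparisons carried the library as a block. Named genes were the markers, the list members and, per comparison, up to 10 called genes in each direction with at least 50 CPM and the same direction in every library. Segment and interaction results outside this rule were chosen after the values were seen.

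Alternatives were DESeq2 1.42.0, other size factors, no low-count filter, no fold limit, a replicate block or no library block, 10% mitochondrial UMIs, 5000 genes, 2 Gzmk UMIs, lineage also from tags, removal of the top 10% of doublet scores, isotype scaling of tags and leaving out each library. Doublets were otherwise kept. DESeq2 was run without independent filtering, because with it 7808 genes had no adjusted p. The test scripts were checked on simulated data. Gene coordinates are from GENCODE M21 on GRCm38.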

Additional observations from a re-analysis of the deposited data

Results flagged for a closer look

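A set of results was picked out because the knockdown effect differed between the members and another CD4 class, as tested by an interaction term in edgeR (log2 difference of the effects, members minus the other class). Against CD4 cells without Nkg7 and Gzmk, the interaction was -3.53 for Ccl3, -2.33 for Ccl4, -3.31 for Ccl5, -1.15 for Cxcr6, -1.14 for Maf, -1.26 for Pdcd1, -1.17 for Pmepa1, -2.05 for Rgs16 and -2.11 for Serpina3g, and 1.35 for Apoe. Without either sh-B7-H3 (1) library, the calls of Ccl4 and of the 7 genes after Ccl5 were lost (adjusted p = 0.190 to 0.872 for the 7). Without sh-B7-H3 (1) library 1 and library 2, Rgs16 lay at -2.03 and -2.05 and Serpina3g at -1.90 and -2.30. Pdcd1 lay at -1.37 and -1.09 there (-0.94 without sh-NC library 1) and Pmepa1 at -1.03 and -1.31. In fits without 1 library Maf fell to -0.57, Cxcr6 to -0.78 and Apoe to 0.54, and Apoe reversed with 5000 genes. Only the Ccl5 call held in each of these 4 fits among the genes named here. Pdcd1 stood at 7.72, 11.1, 16.3 and 20.0 CPM and Cxcr6 at 10.4, 11.2, 34.9 and 21.9 CPM in the CD4 cells without Nkg7 and Gzmk, beside 499, 454, 387 and 393 CPM and 986, 957, 1126 and 1139 CPM in members.

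Against Nkg7-high CD4 cells without a Gzmk UMI, the interaction was negative for Ccl5 (-1.68), Cd7 (-2.52), Prf1 (-1.71), Trat1 (-1.48), Eomes (-1.32), Gimap7 (-1.20) and Lag3 (-1.18). It was positive for Ccl1 (8.02), Xcl1 (4.67), Cd226 (2.27), Nrp1 (1.91), Nrgn (1.53), Tbc1d4 (1.29), Adgre5 (1.18), Itgb1 (1.15), Ly6e (1.07) and Txnip (1.02). Of these, Ccl5, Cd7, Gimap7 and Xcl1 were called without any single library. Adgre5 was lost in each of the 4 fits without 1 library, at 1.09 to 1.22. Trat1 (-1.38 to -1.62), Eomes (-0.92 to -1.40), Tbc1d4 (1.09 to 1.34) and Txnip (0.91 to 1.02) were lost in 3. Cd226 and Nrgn were lost without sh-NC library 1 (1.66 and 1.47) and without sh-B7-H3 (1) library 2 (2.20 and 1.20). Itgb1 was lost without sh-NC library 1 (0.53, adjusted p = 0.636) and without sh-B7-H3 (1) library 1 (0.91). Ccl1, Prf1, Lag3, Nrp1 and Ly6e were lost without sh-NC library 1, at 7.61, -0.94, -0.81, 1.85 and 0.99. Prf1 stood at 5.06, 68.3, 105 and 108 CPM in the Gzmk-0 cells, where sh-NC library 1 rests on 1 UMI. The value for Ccl1 depends on the prior count, since its members held 0 UMIs in both sh-NC libraries. Among tags it was -1.20 for CD39, -0.92 for CD38 and 0.65 for CXCR4, each at an adjusted p of 0.0358. The Gzmk-0 classes of the sh-NC libraries hold only 30 and 35 cells, with a median Nkg7 count of 10.5 and 11 against 35 and 30.5 in the sh-B7-H3 (1) libraries. The classes compared are split by Gzmk detection, and the part of that split in these interactions was not tested.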

How the results depend on the processing

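The difference in the share of members kept its direction under every alternative run. As a share of Cd4+ Cd8- Foxp3- cells it lay between 21.6 points with 2 Gzmk UMIs and 37.0 points with lineage also from tags. As a share of all cells within the limits it was 6.41 points. Between the groups within members, 57 genes were called, against 16 by DESeq2 and 3 with its independent filtering, 92 without the low-count filter, 183 without the fold limit and 19 to 72 when 1 library was left out. With the replicate block 65 genes were called, all 57 among them, and the same 5 tags. Same-numbered libraries did not deviate together (r -0.00401 for RNA and 0.00697 for tags), so the numbers were not taken as pairs. The 5 tags became 8 by DESeq2, 67 without the fold limit and 4 to 9 when 1 library was left out. Against the Gzmk-0 cells, 46 genes became 98 with 10% mitochondrial UMIs, 79 with 5000 genes, 124 without the filter, 24 without the library block, 72 without the fold limit and 20 to 89 when 1 library was left out, and 0 tags became 1 by DESeq2. Against the CD8 counterparts, 471 genes and 7 tags became 1734 and 29 without the fold limit. The interaction with CD4 cells without Nkg7 and Gzmk (17 genes) gave 4 by DESeq2, 9 with 2 Gzmk UMIs, 2 with lineage also from tags, 27 without the filter and 1 to 36 when 1 library was left out. Its value for Apoe reversed to -0.33 with 5000 genes. The interaction with Gzmk status (32 genes) gave 6 by DESeq2, 20 with 2 Gzmk UMIs, 52 without the filter, 52 without the fold limit, 50 without high doublet scores and 8 to 82 when 1 library was left out. Its 1 tag became 3 without the fold limit, 0 to 13 when 1 library was left out and 0 with 10% mitochondrial UMIs, isotype scaling, lineage also from tags, doublets removed or 5000 genes. The causes of these changes were not tested. With 2 libraries per group, from tumors pooled by group, differences between mice could not be assessed.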

Other observations

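The TIGIT tag summed to 99, 106, 88911 and 287 counts in the members, although the median cell held 0 to 1. In sh-B7-H3 (1) library 1 a single cell held 74103 of these counts and the next 14433, so the sum of that library describes 2 cells. A CD8 counterpart in sh-NC library 2 held 5362 TIGIT counts and one in sh-NC library 1 held 1571 CD44 counts. Sums of tags can be set by such cells, so the TIGIT difference in members (log2 7.11, SE 2.79, adjusted p = 0.124 in edgeR) is read as no level.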
